A study of Mus musculus with 12 samples.

Results

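The earliest time of a skin response to RNAdjuvant was described from 6 of the 12 arrays of the series, chosen by their titles alone. Of these, 3 came from skin taken 1.5 h after an intradermal dose of RNAdjuvant, and 3 came from skin of mice that were left untreated. All mice were female Balb/c, an inbred laboratory strain. The labels give the dose as 25 mg, and whether that unit is right was not tested. They name neither the age of the mice nor the body site of the biopsy. The other 6 arrays, 3 from 6 h and 3 from 24 h after the same treatment, entered the estimate of the spread and were used to follow named genes. The labels call the samples of a group biological replicates and mention no pooling. Untreated mice received no injection, so the needle, the carrier and the adjuvant cannot be told apart. A biopsy holds many cell types, and in such bulk tissue fewer cells of a type and less RNA per cell cannot be told apart.

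RNAdjuvant combines a non-coding single-stranded RNA with a cationic peptide and is given with vaccines to stimulate innate immunity. Foreign RNA is sensed in endosomes by Toll-like receptors such as Tlr7, and in the cytosol by the helicases encoded by Ddx58 and Ifih1. These receptors switch on interferon regulatory factors, NF-kB and AP-1, which together drive transcription of interferon beta, chemokines and inflammatory cytokines. Secreted interferon then binds its receptor and, through STAT proteins, induces a second and larger group of antiviral genes. The comparison asks which genes differed from untreated skin 1.5 h after the injection.

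Levels are RMA values on the log2 scale, where a difference of 1 is a 2-fold difference. A gene was called changed where its Benjamini-Hochberg adjusted p from limma over 19938 genes was under 0.05. Of these genes, 439 were called (2.20%), 122 higher at 1.5 h (0.612%) and 317 lower (1.59%). Rises were fewer and larger than falls, since 14 genes rose at least 4-fold and 2 fell at least 4-fold. Genes called higher had a median fold of 1.77, and genes called lower had a median log2 change of -0.71. Genes called lower were also the more strongly expressed, with a mean untreated level of 7.34 against 6.16 for genes called higher and 6.17 for all genes. In 5003 genes (25.1%) the 3 values of one group lay outside the range of the other. An unadjusted p from limma under 0.05 was found in 3490 genes (17.5%). Both shares are the background for such counts below. The share of calls that were higher was 27.8%, and it depended on the scaling. It was 56.9% (218 higher and 165 lower) when arrays were centred on the median of all probe sets, which moved the median change of all genes from 0.02 to 0.12, and 43.2% after quantile normalization over all probe sets. Without single libraries the total fell to as few as 97, and 27 of the genes called higher and 41 of those called lower kept their call whichever of the 6 libraries was left out. These 68 genes are called steady below. Just inside the threshold lay Malat1 (adjusted p = 0.0496) and Zfp975 (0.0497), and just outside it Abca9 (0.0502) and Tra2a (0.0504).

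The tissue carried the markers of skin. The keratinocyte keratins Krt5 and Krt14 of the basal layer and Krt1 and Krt10 of the upper layers lay between 11.41 and 12.67 in all 6 libraries, and none of 16 keratinocyte markers was called. Array medians of the 6 libraries lay between 5.53 and 5.70, and arrays correlated at r = 0.983 to 0.986 within a group and at 0.970 to 0.983 between the groups. Some libraries stood apart in markers of other tissue. The lymph node vessel gene Glycam1 was at 11.38 in 1.5 h replicate 1 and between 3.87 and 4.46 in the other 5 libraries, and B and plasma cell markers averaged 6.07 there against 4.21 to 4.33 elsewhere. Skeletal muscle markers averaged 11.23 and 11.46 in 1.5 h replicates 1 and 2, and 10.21 to 10.41 in the other 4 libraries. Hair follicle markers averaged 7.44 in untreated replicate 2 and 4.90 to 5.63 elsewhere. Markers of simple and glandular epithelium averaged 5.42 to 5.54 in untreated skin and 7.63, 6.69 and 6.91 in the 3 treated libraries. The part of these tissues in the results below was not tested, except where a value without a library is given.

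**Figure D1:**
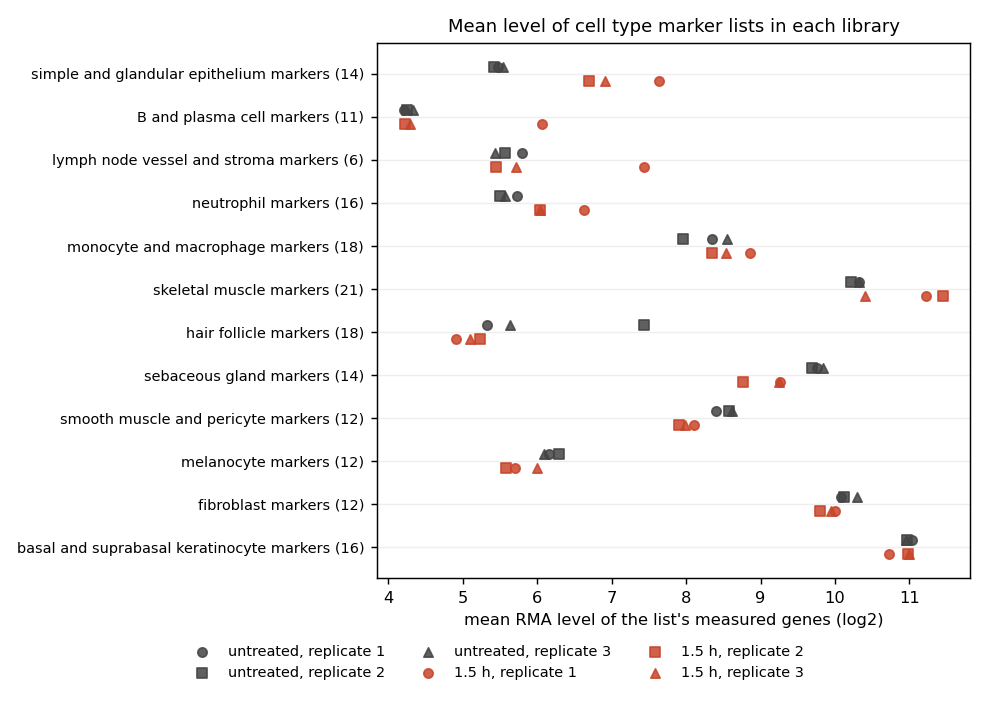
Mean log2 level of the measured genes of 12 cell type marker lists (number of genes in brackets) in each untreated library (grey) and each 1.5 h library (red), with the replicate as the symbol. Glandular epithelium markers were higher in all 3 treated libraries, B cell and lymph node markers stood out in 1.5 h replicate 1, muscle markers in 1.5 h replicates 1 and 2, and hair markers in untreated replicate 2.

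Ifnb1 rose most. It encodes interferon beta, the type I interferon that many cell types make first. Its level was 3.32, 3.59 and 3.35 in untreated skin and 8.10, 7.85 and 7.34 at 1.5 h. The groups were far apart, with every treated library above 7 and every untreated one below 4. The rise was 4.34 ± 0.16 (log2, SE, n = 3 per group), or 20.3-fold, with adjusted p = 1.37e-08 from limma. Among the interferon alpha genes, Ifna4 was also called. It was at 3.33, 3.38 and 3.29 in untreated skin and at 6.31, 5.4 and 4.58 at 1.5 h, a 4.28-fold rise (adjusted p = 0.00535). Its 3 treated values spread over more than those of Ifnb1, but all lay above the untreated ones. Both genes were steady, but Ifna4 was not called when values were raised to a floor of 4.638 (0.165), which lies above its untreated level.

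Of the 16 interferon genes measured, these 2 were called higher and none lower, and the median log2 change of the 16 was 0.13 against 0.02 over all genes. No other interferon alpha gene was called. Ifna2, Ifna5, Ifna9 and Ifna11 differed by 0.31, 0.25, 0.30 and 0.25 (log2, adjusted p = 0.423, 0.356, 0.248 and 0.313). Ifna13, Ifna16, Ifnab and Ifna12 differed by 0.19, 0.09, 0.09 and 0.01, and Ifna14 by -0.05. Interferon alpha genes are near copies of each other and their probes may share signal, so the member behind the Ifna4 value is uncertain. The epithelial interferons Ifnk and Ifne differed by -0.72 and -0.15 (adjusted p = 0.183 and 0.598), and Ifnz by -0.68 (0.0981). Interferon lambda 2, Ifnl2, which acts on epithelia, differed by 0.17 (0.626), and Ifng, made by T and NK cells, by -0.13 (0.746).

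Promoters were searched for regulatory motifs close to the starts of genes. RefSeq promoters (GRCm38.p6) were found for 15614 of the 19938 genes, and the 250 bases before each start were searched on both strands. The search used the interferon-stimulated response element core (GAAA, any 2 bases and GAAA again), the NF-kB consensus, the AP-1 site TGANTCA, the CArG box that serum response factor binds, and the cyclic AMP response element TGACGTCA. The 6 stretches below, each written in the direction of its gene and ending at the base before its start, belong to both interferon genes called, to Cxcl10 and Il6, and to the antiviral genes Ifit1 and Rsad2. Capitals mark the matches, and a palindromic motif matches both strands at the same place.
Ifnb1, chr4:88522795-88523044, minus strand: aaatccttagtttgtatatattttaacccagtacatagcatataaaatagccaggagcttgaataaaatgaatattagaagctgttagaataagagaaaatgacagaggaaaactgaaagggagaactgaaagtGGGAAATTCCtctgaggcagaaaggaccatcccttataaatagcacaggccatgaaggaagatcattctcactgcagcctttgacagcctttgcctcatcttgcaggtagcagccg
Ifna4, chr4:88841566-88841815, plus strand: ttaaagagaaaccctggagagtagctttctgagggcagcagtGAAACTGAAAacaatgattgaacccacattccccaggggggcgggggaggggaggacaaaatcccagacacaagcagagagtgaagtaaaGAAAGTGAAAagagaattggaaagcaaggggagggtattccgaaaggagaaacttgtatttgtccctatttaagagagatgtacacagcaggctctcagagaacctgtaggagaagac
Cxcl10, chr5:92348890-92349139, minus strand: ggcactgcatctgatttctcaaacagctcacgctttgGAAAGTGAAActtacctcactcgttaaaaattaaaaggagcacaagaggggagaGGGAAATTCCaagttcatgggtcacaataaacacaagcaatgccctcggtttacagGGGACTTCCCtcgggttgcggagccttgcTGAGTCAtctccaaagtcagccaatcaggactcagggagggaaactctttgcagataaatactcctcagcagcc
Il6, chr5:30012864-30013113, plus strand: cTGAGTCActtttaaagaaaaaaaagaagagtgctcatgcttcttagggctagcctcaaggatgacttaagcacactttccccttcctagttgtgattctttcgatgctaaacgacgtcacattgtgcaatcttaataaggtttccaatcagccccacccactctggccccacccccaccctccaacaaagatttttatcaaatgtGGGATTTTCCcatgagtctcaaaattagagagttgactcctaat
Ifit1, chr19:34640639-34640888, plus strand: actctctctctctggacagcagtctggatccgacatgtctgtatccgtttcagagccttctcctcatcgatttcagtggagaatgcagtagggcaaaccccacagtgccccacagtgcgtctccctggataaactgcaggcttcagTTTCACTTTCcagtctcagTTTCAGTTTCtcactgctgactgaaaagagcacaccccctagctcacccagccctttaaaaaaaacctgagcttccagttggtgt
Rsad2, chr12:26456453-26456702, minus strand: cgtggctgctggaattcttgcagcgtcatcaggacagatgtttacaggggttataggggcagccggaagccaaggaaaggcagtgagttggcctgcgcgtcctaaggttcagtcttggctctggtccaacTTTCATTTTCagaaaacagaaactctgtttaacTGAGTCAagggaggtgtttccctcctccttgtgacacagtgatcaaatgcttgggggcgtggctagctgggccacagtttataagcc
The Ifnb1 stretch held an NF-kB match that starts 116 bases before the gene. Ifna4 held 2 interferon response element cores, at 208 and 118 bases, and no NF-kB match. Cxcl10 held 1 response element core at 213 bases, NF-kB matches at 159 and 103, and an AP-1 match at 74. Il6 held an NF-kB match at 44 bases and an AP-1 match at 249. Ifit1 held 2 response element cores on the opposite strand, at 104 and 85 bases, and Rsad2 held 1 at 120 with an AP-1 match at 87. The 6 were printed because they hold matches. Among other large rises, the stretches of Ptx3, Ccl3, Lcn2, S100a9, Hc, Clec4e, Lgi1 and Krt7 held no match. That of Tmprss2 held an NF-kB match at 35 bases. No promoter was found for the large rises Ccl2, Krt19, Ccl7, Ccl4 and Mx2, so these genes were not searched.

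Shares were counted by gene, and a gene with several promoters was counted where any of them held a match. The response element core was found in 3.4% of all 15614 genes with a promoter. It was found in 10 of 101 such genes called higher (9.9%) and in 6 of 37 called higher at least 2-fold (16.22%). The NF-kB consensus was found in 5.05%, 11.88% and 24.32% of the same sets, and AP-1 in 7.12%, 8.91% and 13.51%. In the 240 genes with a promoter that were called lower, the shares were 2.5%, 4.58% and 7.5%. The cyclic AMP element was in 2.33% of all genes with a promoter and in 3.96% and 2.08% of those called higher and lower. The CArG box was in 1.45%, 0.99% and 0.83%. These shares are descriptions, and a match is not a bound site.

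**Figure D2:**
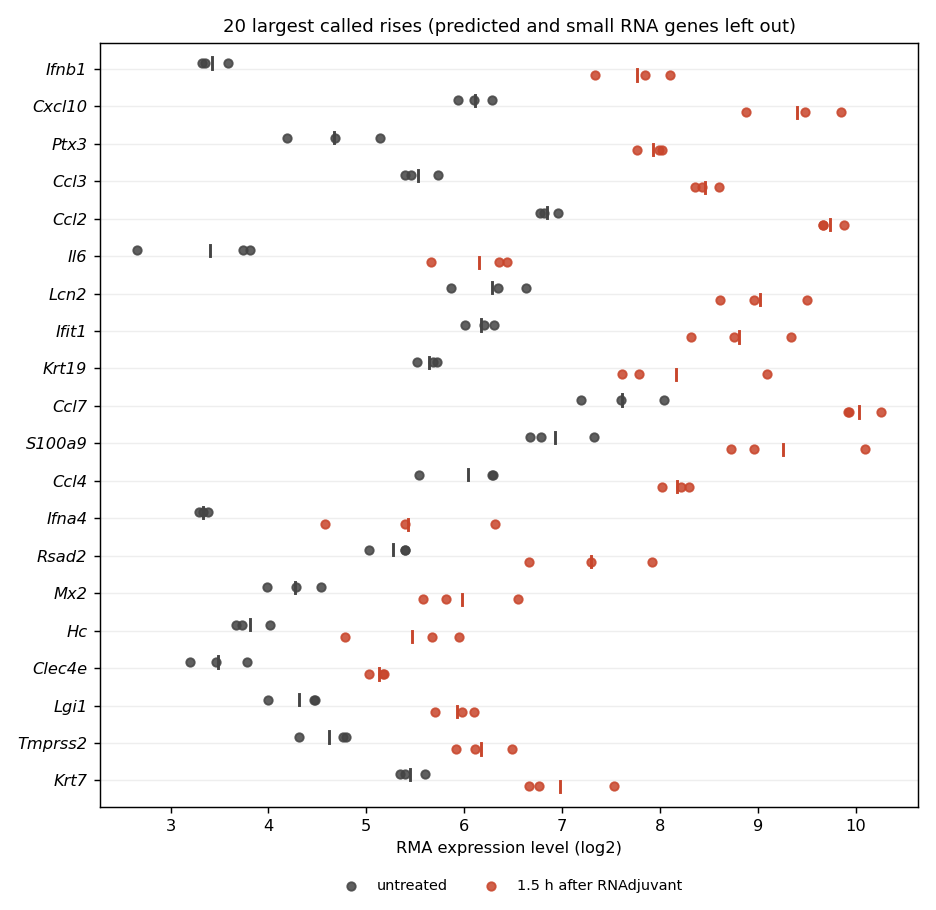
Log2 RMA level of the 20 genes with the largest called rises, predicted genes left out, in each of the 3 untreated libraries (grey) and the 3 libraries at 1.5 h (red), with the group mean as a bar. The groups do not overlap in any of the 20 genes, which were picked by their calls, and the widest gap is that of Ifnb1. Over all genes the groups were apart in 25.1%.

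Chemokines made up much of the rest of the top of the list. Of 18 CC chemokine genes, 6 rose and none fell, with a median log2 change of 0.40 over the 18, and 5 of the 18 were called without 1.5 h replicate 1. Ccl12 and Ccl9 were among the 6 but not among the 5, so the 5 include a gene that was not called with all libraries. Ccl2, which draws monocytes, was at 6.82, 6.77 and 6.96 in untreated skin and at 9.88, 9.67 and 9.67 at 1.5 h, a 7.39-fold rise (adjusted p = 3.77e-05). Ccl7, its neighbour in the genome and another monocyte chemoattractant, went from 7.6, 7.19 and 8.04 to 10.26, 9.92 and 9.93 (5.38-fold, 0.000235). In both genes the treated values were tight and well above every untreated value. Ccl3 and Ccl4, which encode macrophage inflammatory proteins, rose 7.65-fold (5.73, 5.4 and 5.46 to 8.60, 8.43 and 8.36) and 4.43-fold (6.28, 6.29 and 5.54 to 8.30, 8.02 and 8.21), with adjusted p = 0.000857 and 0.00116. These 4 genes were steady.

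The other 2 CC chemokines called were less firm. Ccl12, a mouse monocyte chemoattractant, rose 2.78-fold (adjusted p = 0.0304), and its highest untreated value, 7.83, lay close to its lowest treated value, 8.01. Ccl9 rose 2.17-fold (0.0349), from 8.10, 7.37 and 8.55 to 9.45, 8.94 and 8.99. Left-out libraries ended the call of Ccl12 in 4 of 6 cases and of Ccl9 in 5 of 6, with adjusted p as high as 0.123 without untreated replicate 2 and 0.119 without 1.5 h replicate 1. Ccl5, which attracts T cells, was at 7.15, 6.95 and 7.09 against 9.77, 7.78 and 8.09, a 2.79-fold difference that was not called (0.0572). Its highest value was in the library rich in lymph node markers. Ccl6 differed 1.95-fold (0.0899).

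Of 15 CXC chemokines, 2 rose. Cxcl10, an interferon-inducible chemokine that draws T cells through Cxcr3, was at 6.28, 6.10 and 5.94 in untreated skin and at 9.85, 9.48 and 8.88 at 1.5 h, a 9.81-fold rise (adjusted p = 2.79e-05). It was steady. Cxcl9 and Cxcl11, which share its receptor, differed by 0.43 and 0.32 (log2, adjusted p = 0.391 and 0.467). So 1 of the 3 ligands of Cxcr3 had been called at this time. The neutrophil chemokine Cxcl1 rose 2.63-fold, from 5.56, 6.09 and 6.43 to 7.30, 7.22 and 7.74 (0.0213, and up to 0.0718 with untreated replicate 2 left out), while Cxcl2 differed by 0.64 with overlapping groups (0.330). Cxcl15 was at 7.36 in 1.5 h replicate 1, at 5.43 and 4.39 in the other treated libraries and at 3.04 to 3.68 in untreated skin, a difference that was not called (0.0610).

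Among 17 chemokine receptors, Cxcr2, the receptor of neutrophils for Cxcl1, rose 2.49-fold (adjusted p = 0.0424) and Ccr1 2.26-fold (0.0361), and Cxcr6 fell by 0.63 (log2, 0.0350). No call in this list survived the removal of 1.5 h replicate 1, where the adjusted p was 0.133, 0.123 and 0.0903. Cxcr2 also lost its call under 3 of 6 other scalings, as did Ccr1 under 1 and Cxcr6 under 2. The chemokine scavenging receptor Ccrl2 rose 2.15-fold (0.0290) and the complement C5a receptor C5ar1 1.74-fold (0.0310), and both calls ended with 5 of 6 libraries left out, up to 0.123 and 0.128 without untreated replicate 2. Ccrl2 and C5ar1 were named after their values were seen.

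Il6, a cytokine that drives fever and the acute phase response, was the single called member of its family of 12 genes. It was at 2.66, 3.74 and 3.81 in untreated skin and at 6.36, 6.44 and 5.66 at 1.5 h, a 6.73-fold rise (adjusted p = 0.00535) that was steady. Low untreated values make its fold uncertain, and the call was lost when values were raised to a floor (0.0583). The family's Osm differed by 0.48, and its receptors Il6ra and Il6st by 0.32 and -0.26 (log2, adjusted p = 0.236, 0.139 and 0.226). Tnf, the founding cytokine of its superfamily, rose 1.95-fold, from 5.99, 5.65 and 5.63 to 6.69, 6.64 and 6.82 (0.0181, and 0.083 without untreated replicate 3). Tnfrsf12a, the receptor for the TNF relative TWEAK, rose 1.99-fold, from 7.30, 7.18 and 6.76 to 7.98, 8.22 and 8.01 (0.00421), and was steady. No other of 25 superfamily genes was called, and without 1.5 h replicate 2 Tnf was lost as well (0.0506).

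Genes of interleukin 1 were not among the calls. Of 10 measured, 0 were called and 2 passed an unadjusted p of 0.05, against 17.5% of all genes. Il1b was at 6.16, 5.78 and 5.83 against 6.81, 6.4 and 6.06 (adjusted p = 0.212), and Il33 differed by 0.45 (0.0940). Of 24 colony-stimulating factors and other cytokines, 0 were called and 5 passed an unadjusted p of 0.05. The anti-inflammatory Il10 differed by 0.59 (0.134), and the granulocyte factors Csf3 and Csf2 by 0.30 and 0.00 (0.209 and 0.997).

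Immediate early genes encode transcription factors and feedback proteins that cells switch on within minutes of a stimulus. Of 30 AP-1, EGR and related factors, 4 rose and none fell, with a median log2 change of 0.32, and 17 of the 30 passed an unadjusted p of 0.05. Fosb rose 2.81-fold, from 6.45, 6.84 and 6.38 to 7.94, 8.14 and 8.07 (adjusted p = 0.00779). Fosl1 rose 2.40-fold, from 5.90, 6.13 and 6.00 to 7.0, 7.62 and 7.21 (0.00105). Both AP-1 subunits were steady, and neither was highest in 1.5 h replicate 1. Atf3, a stress-induced repressor, rose 2.28-fold (0.0192, up to 0.0741 without untreated replicate 3) and Junb 1.49-fold (0.0304, up to 0.121 without the same library). Egr1 and Fos differed by 0.75 and 0.56 and Nr4a1 by 0.71 (0.0932, 0.249 and 0.177). The count of 4 was 6 or 7 under 5 of 6 other scalings, 3 without 1.5 h replicate 1 and 2 without 1.5 h replicate 2.

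Several feedback genes changed in the same libraries. Tiparp, an ADP-ribosyltransferase, rose 1.84-fold, from 7.6, 7.50 and 7.80 to 8.45, 8.53 and 8.58 (adjusted p = 0.00105), and Ppp1r15a, which restores translation after stress, rose 1.69-fold (0.00535). Bcl3, an IkB-like coactivator of NF-kB, rose 2.46-fold, from 7.54, 7.46 and 7.95 to 9.12, 9.10 and 8.64 (0.0108, and 0.0557 without untreated replicate 2). It was the single call among 17 NF-kB genes, where the inhibitors Tnfaip3 and Nfkbia differed by 0.59 and 0.21 (0.136 and 0.601). Socs3, a brake on cytokine signalling, rose 1.88-fold (0.0477), a call lost with each of the 6 libraries left out, under 3 of 6 scalings and with the replicate block (0.0558). Of 18 MAP kinase feedback genes, 0 were called and 8 passed an unadjusted p of 0.05. Tiparp and Ppp1r15a were steady and were named after their values were seen.

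Some interferon-induced antiviral genes had begun to rise. Of 26 antiviral effectors, 6 rose and none fell, with a median log2 change of 0.38 over the 26, and 5 were called without 1.5 h replicate 1. By library, the median difference of the 26 from the untreated means was 0.76, 0.38 and -0.03 in 1.5 h replicates 1, 2 and 3. So by its median the list was not higher in replicate 3. The mean level of the 26 was 6.71 in that library and 6.50 to 6.65 in the untreated ones. Ifit1, which binds foreign RNA ends, was at 6.01, 6.20 and 6.30 in untreated skin and at 9.34, 8.76 and 8.32 at 1.5 h, a 6.21-fold rise (adjusted p = 2.79e-05). Rsad2, which encodes the antiviral enzyme viperin, went from 5.39, 5.4 and 5.03 to 7.92, 7.30 and 6.66 (4.05-fold, 0.00206). Its genomic neighbour Cmpk2, a nucleotide kinase, rose 1.88-fold (0.00894), from 5.41, 5.33 and 5.31 to 6.58, 6.28 and 5.91. In each of these 3 genes every treated library lay above every untreated one.

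Mx2, a dynamin-like antiviral GTPase, rose 3.27-fold, from 4.28, 3.99 and 4.54 to 6.55, 5.81 and 5.58 (adjusted p = 0.00462). Oasl1, a relative of the oligoadenylate synthetases, rose 2.81-fold (0.00113), and Irgm1, an immunity-related GTPase, 1.75-fold (0.0304). The first 5 of these 6 genes were steady, while Irgm1 reached an adjusted p of 0.107 without untreated replicate 3 and 0.0801 when the 6 samples were fitted alone. In all 6, 1.5 h replicate 1 was the highest treated library and replicate 3 the lowest, an order shared by 41 of all 122 genes called higher. Ifit2 and Ifit3 differed by 0.89 and 0.90 (0.0870 and 0.108), and Mx1 and Oas1a by 0.41 and 0.19 with overlapping groups (0.556 and 0.665). Some uncalled genes of the list differed downward, such as Herc6 by -0.46 and Oas2 by -0.43 (0.147 and 0.425). Trex1, which degrades cytosolic DNA, and Slfn2 of the Schlafen family, named after their values were seen, rose 1.40-fold (0.0241) and 1.78-fold (0.0280). Both lost their call without untreated replicate 2 (0.101 and 0.122).

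Of 18 RNA receptors and adaptors, Dhx58 alone was called. It encodes a helicase that regulates the other cytosolic RNA receptors, and it rose 2.15-fold, from 4.53, 4.34 and 4.97 to 6.17, 5.52 and 5.47 (adjusted p = 0.0179, and 0.0842 without untreated replicate 2). Ddx58 was at 7.31, 7.16 and 7.39 against 7.77, 7.16 and 7.11, and Ifih1, Tlr3 and Tlr7 differed by 0.25, 0.18 and 0.35 (0.265, 0.536 and 0.462). Irf1, an early interferon regulatory factor, rose 1.84-fold with tight values, from 7.37, 7.39 and 7.41 to 8.38, 8.27 and 8.16 (0.00552), and was steady. Irf7, which amplifies interferon alpha transcription, differed by 0.58 (0.205). None of 11 genes for interferon receptors and JAK-STAT proteins was called in the fit used here, while 2 passed an unadjusted p of 0.05. Ifngr2 differed by 0.48 and Stat2 by -0.23 (0.0579 and 0.464).

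Acute phase and antimicrobial genes moved both ways. Of 20 listed, 5 rose and 2 fell, and 3 were called higher without 1.5 h replicate 1. Ptx3, a secreted pentraxin that tags microbes, rose 9.52-fold, from 4.68, 4.19 and 5.14 to 8.02, 7.99 and 7.76 (adjusted p = 0.00101), and was steady. Lcn2, which withholds iron from bacteria, went from 6.35, 5.86 and 6.63 to 9.50, 8.61 and 8.96 (6.69-fold, 0.0170). S100a9, a subunit of the neutrophil protein calprotectin, went from 7.33, 6.78 and 6.67 to 10.09, 8.96 and 8.73 (5.04-fold, 0.0166). The treated values of all 3 genes lay above the untreated ones, and those of Ptx3 were close together. Its calprotectin partner S100a8 differed by -0.16 with overlapping groups (0.848). Saa3, a serum amyloid A, rose 2.77-fold (0.00791, steady), and the protease inhibitor Slpi 2.57-fold (0.0307, and 0.128 without untreated replicate 3). Calls of Lcn2 and S100a9 ended with 2 of 6 libraries left out, up to 0.0792 without untreated replicate 2 and 0.0763 without untreated replicate 3.

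Markers of leukocytes that enter inflamed skin were partly higher. Of 16 neutrophil markers, 4 rose: S100a9, Cxcr2, Clec4e and Retnlg, and 2 were called without 1.5 h replicate 1. Clec4e, the C-type lectin Mincle, was at 3.78, 3.20 and 3.46 against 5.18, 5.17 and 5.03, a 3.14-fold rise (adjusted p = 0.00535) that was steady but was not called when values were raised to a floor (0.276). Retnlg, a resistin-like protein of granulocytes, rose 2.65-fold (0.0427, 0.159 without untreated replicate 2 and 0.0510 with the replicate block), and Mpo and Clec4d differed by 0.88 and 0.79 (0.159 and 0.102). Of 18 monocyte and macrophage markers, Plac8 rose 2.25-fold (0.0310) and Cd14, a coreceptor for bacterial products, 1.88-fold (0.0329). Neither was called without 1.5 h replicate 1 (0.0990 and 0.104). Neutrophil markers averaged 5.50 to 5.73 in untreated libraries and 6.64, 6.03 and 6.04 in treated ones, and the pan-leukocyte gene Ptprc differed by 0.08 (0.884).

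Mast cells store inflammatory mediators in the dermis. Of 10 of their markers, the tryptase Tpsab1 rose 2.20-fold, from 5.33, 5.09 and 5.17 to 7.09, 5.79 and 6.11 (adjusted p = 0.0350), and Hdc, which makes histamine, 1.80-fold (0.0147). Without untreated replicate 2 the adjusted p of Tpsab1 was 0.127, and Hdc reached 0.0761 without untreated replicate 3. Kit, Tpsb2 and Fcer1a differed by 0.32, 0.31 and 0.25 with overlapping groups (0.501, 0.432 and 0.497). Of dendritic cell markers, Cd209a, a DC-SIGN homologue, fell by 0.62 (log2), from 8.16, 7.77 and 8.25 to 7.57, 7.21 and 7.53 (0.0357, and 0.143 without untreated replicate 3). It was 1 of 13, and no marker of this list was called without 1.5 h replicate 1. The neighbouring lectin genes Cd209c and Clec4g, named after their values were seen, fell by 1.19 and 0.67 (0.0192 and 0.0166, and 0.0842 and 0.0821 without untreated replicate 3). No marker of T and NK cells (12), B and plasma cells (11) or lymph node stroma (6) was called, with 1 in each list passing an unadjusted p of 0.05.

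Some of the largest rises belonged to epithelial genes that are not typical of the skin surface. Of 14 markers of simple and glandular epithelium, 4 rose: Krt19, Krt7, Krt8 and Elf5. Of the same 14, 13 passed an unadjusted p of 0.05, against 17.5% of all genes. In 13 the groups did not overlap, against 25.1% of all genes. Krt19, a keratin of ducts and glands, was at 5.72, 5.52 and 5.68 in untreated skin and at 9.09, 7.61 and 7.79 at 1.5 h, a 5.75-fold rise (adjusted p = 0.0411). Krt19 lost its call with each of the 6 libraries left out (up to 0.138 without 1.5 h replicate 1), after quantile normalization (0.0508), with a floor (0.0634) and with a trended and robust fit (0.118). Krt7, a keratin of simple epithelia, rose 2.90-fold (0.0105, steady) and Krt8 2.78-fold (0.0133, and 0.0501 without untreated replicate 3). Elf5, a factor of gland epithelium, was called with an adjusted p that reached 0.152 without untreated replicate 3. Of the 14, 2 were called when 1.5 h replicate 1 was left out and 2 when replicate 2 was. Krt18, the keratin that pairs with Krt8, was at 5.51, 5.56 and 5.92 against 9.81, 8.23 and 8.75, and the milk protein gene Csn3 at 3.70, 3.54 and 4.26 against 7.70, 6.98 and 6.51. These last differences, 9.65-fold and 9.39-fold, were among the largest measured yet not called (0.0539 and 0.0578). The mean level of the 14 markers was 7.34, 5.56 and 5.48 in 6 h replicates 1, 2 and 3. It was 6.57 or more in each 24 h library. The estimate of the spread included these later arrays, so a missing call does not rest on the untreated and 1.5 h libraries alone. With the replicate block 9 of the 14 were called. Without both libraries rich in Glycam1, 1.5 h replicate 1 and 6 h replicate 1, 9 were called as well. Tmprss2, an epithelial protease next to Mx2 in the genome, rose 2.93-fold (0.0361, and 0.140 without untreated replicate 3). Whether these biopsies held more glandular tissue was not tested.

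Smaller sets of secreted and stress genes also rose. Mt2, a metallothionein that binds zinc, was at 11.07, 11.26 and 10.96 against 11.93, 11.90 and 12.02, a 1.81-fold rise (adjusted p = 0.00351), and Mt1 differed by 0.52 (0.0580). Mt2 was steady, with its groups well apart. In the prostaglandin list of 20 genes, Ptgis, the prostacyclin synthase, rose 1.63-fold (0.0137) and Ptges2, a prostaglandin E synthase, 1.50-fold (0.0225), and both lost their call without untreated replicate 2 (0.0706 and 0.0994) and without 1.5 h replicate 2. Ptges2 lies beside Lcn2 and Slc25a25, a mitochondrial carrier gene that rose 1.64-fold (0.00957). Epgn, a ligand of the EGF receptor, rose 1.66-fold (0.0410, and 0.146 without untreated replicate 3), the 1 call among 10 such ligands. Complement C5, encoded by Hc, rose 3.16-fold, from 4.02, 3.67 and 3.73 to 5.95, 4.78 and 5.67 (0.0258, and 0.100 without untreated replicate 2). Lgi1, a secreted neuronal protein, rose 3.05-fold, from 4.47, 4.48 and 4.0 to 5.70, 6.10 and 5.98 (0.0204, and 0.0939 without untreated replicate 3).

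Some of the genes called lower are markers of the sebaceous gland. The sebaceous gland secretes lipids onto the hair, and 6 of its 14 markers fell while none rose, against 1.59% of all genes called lower. Cyp2g1, a cytochrome P450, was at 12.20, 12.19 and 12.20 in untreated skin and at 10.71, 10.17 and 10.57 at 1.5 h, a fall of 1.71 ± 0.13 (log2, SE, n = 3 per group, adjusted p = 3.02e-05). Fa2h, which hydroxylates fatty acids of sphingolipids, went from 10.63, 10.73 and 10.75 to 9.29, 8.85 and 9.65, and so fell by 1.44 (0.00595). Both were among the brightest genes, and their groups were wide apart. The wax synthase Awat2 fell by 1.48, the fatty acyl reductase Far2 by 1.26, the lipid droplet protein Cidea by 1.07 and the melanocortin receptor Mc5r by 0.98 (0.0183, 0.0247, 0.0243 and 0.0192). In Awat2, Far2 and Cidea, 1.5 h replicate 2 was the lowest library, with 6.31, 8.81 and 5.55.

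**Figure D3:**
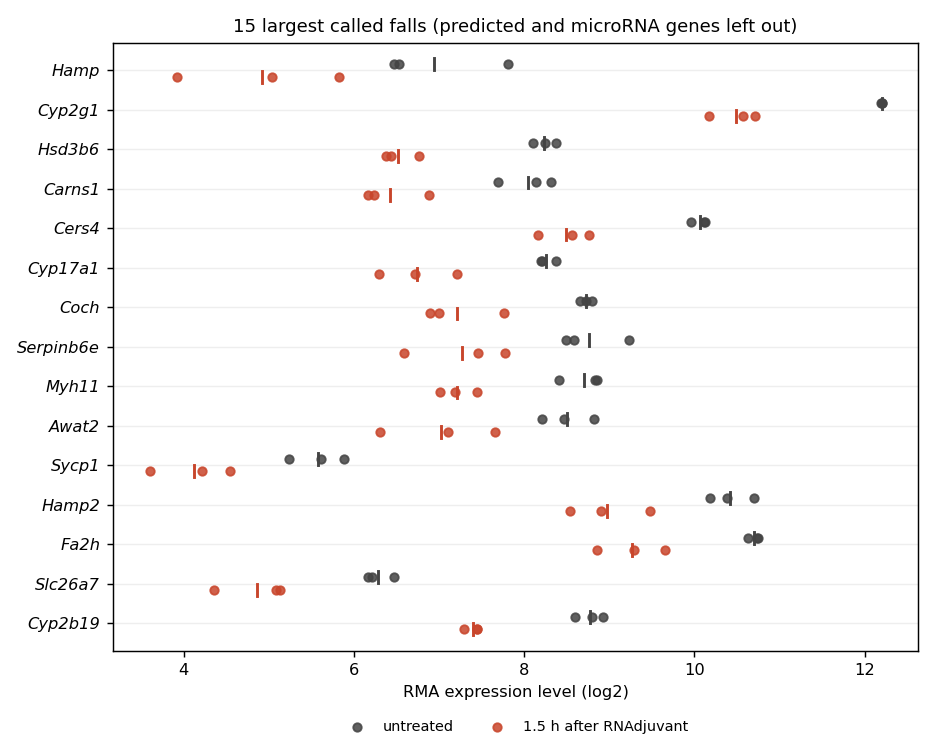
Log2 RMA level of the 15 genes with the largest called falls, predicted genes, microRNA genes and the host transcript Mir99ahg left out, in each untreated library (grey) and each 1.5 h library (red), with the group mean as a bar. The groups do not overlap in any of the 15 genes, which were picked by their calls, against 25.1% of all genes with groups apart. Untreated values of Cyp2g1 lie almost on top of each other near 12.2.

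Sebaceous list counts were the same under 6 other scalings and without 1.5 h replicate 1, and 3 were called without 1.5 h replicate 2. Cyp2g1 and Fa2h were steady. Awat2, Far2, Cidea and Mc5r lost their call without untreated replicate 3 (adjusted p = 0.0855, 0.107, 0.105 and 0.0824). Awat2, Far2 and Cidea also lost it when the 6 samples were fitted alone (0.0513, 0.0537 and 0.0529). Pparg, the nuclear receptor of sebocytes and fat cells, differed by -0.44 with overlapping groups (0.357), and the desaturase Scd1 by 0.02 (0.960). Of 28 genes of fatty acid and wax synthesis, 4 fell and none rose. Beside Awat2 and Far2, which stand in both lists, these were the elongases Elovl6 and Elovl4. Elovl6 went from 10.74, 10.82 and 10.83 to 9.72, 9.25 and 9.69 and so fell by 1.25 (0.00105, steady), and Elovl4 fell by 0.60 (0.0288, and 0.121 without untreated replicate 3). Without 1.5 h replicate 2, 2 of the 28 were called, and the median change over the list was -0.03. None of 17 cholesterol synthesis genes was called, while 2 passed an unadjusted p of 0.05.

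Steroid and sphingolipid enzymes were also among the largest falls. Hsd3b6, a hydroxysteroid dehydrogenase, was at 8.37, 8.10 and 8.24 in untreated skin and at 6.76, 6.38 and 6.43 at 1.5 h, a fall of 1.71 (log2, adjusted p = 4.32e-05). Cyp17a1, which makes androgen precursors, fell by 1.51, from 8.21, 8.20 and 8.37 to 7.21, 6.72 and 6.30 (0.00349), and the ceramide synthase Cers4 by 1.57, from 10.11, 9.96 and 10.12 to 8.56, 8.16 and 8.76 (0.0011). In all 3 genes every treated library lay well below the lowest untreated one. Cyp2b19, a keratinocyte P450 that neighbours Cyp2g1, fell by 1.38 (0.0135, and 0.070 without untreated replicate 3). Carns1, which makes carnosine, and Coch, an extracellular protein, fell by 1.62 and 1.51 (0.00552 and 0.00535). Hsd3b6, Cyp17a1, Cers4, Carns1 and Coch were steady.

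The iron hormone gene Hamp, which encodes hepcidin, fell by 2.01 (log2), from 6.53, 6.47 and 7.81 to 5.82, 3.92 and 5.04 (adjusted p = 0.0266), and its neighbour Hamp2 by 1.45, from 10.38, 10.18 and 10.70 to 9.48, 8.54 and 8.90 (0.0118). These genes are close copies, so their signals may not be separate. Hamp lost its call with 4 of 6 libraries left out (up to 0.105 without untreated replicate 3) and when the 6 samples were fitted alone (0.0774), and Hamp2 with 1 (0.0625 without the same library). Both were lowest in 1.5 h replicate 2. Of the rest of the 14 metallothionein and iron genes, Mt2 alone was called, and the iron exporter Slc40a1 differed by -0.28 (0.316). The meiotic gene Sycp1 fell by 1.45 (0.0105), Serpinb6e by 1.49 (0.0236) and the anion transporter Slc26a7 by 1.42 (0.0236). Calls of these 3 ended without untreated replicate 2, 3 and 3 (0.0541, 0.0999 and 0.0978).

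Of 12 smooth muscle and pericyte markers 4 fell and none rose, with 2 called without 1.5 h replicate 2. Smooth muscle lines the vessels and raises the hairs. Myh11, the smooth muscle myosin heavy chain, was at 8.41, 8.85 and 8.83 in untreated skin and at 7.44, 7.01 and 7.19 at 1.5 h, a fall of 1.48 (log2, adjusted p = 0.00780). The smooth muscle actin Actg2 fell by 1.21, from 7.94, 8.25 and 8.41 to 7.24, 6.86 and 6.86 (0.00421). Mylk and Myl9, a myosin light chain kinase and a light chain, fell by 1.12 and 0.89 (0.0213 and 0.0254). Myocd, the coactivator that drives this programme, fell by 0.84 (0.00535), and the integrin Itga8 by 1.22 (0.0113). Acta2 differed by -0.77 and was not called (0.0545). Myh11, Actg2 and Myocd were steady, while Mylk, Myl9 and Itga8 lost their call with libraries left out, up to 0.0902 without untreated replicate 2 for Mylk, and 0.107 and 0.0567 without untreated replicate 3 for the other two. Myocd and Itga8 were named after their values were seen.

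Skeletal muscle genes went the other way in part of the libraries. None of 21 markers was called, and 7 passed an unadjusted p of 0.05. Myl2, a slow muscle light chain, was at 4.65, 5.06 and 5.01 in untreated skin and at 10.56, 10.43 and 5.38 at 1.5 h (adjusted p = 0.190). Treated replicates 1 and 2 were high and replicate 3 lay near the untreated level. Outside that list, the muscle genes Csrp3, Myl6b, Hspb7 and Myl4, named after their values were seen, rose 2.61, 2.05, 1.99 and 1.76-fold (0.0298, 0.0247, 0.0364 and 0.0319). In Csrp3 and Hspb7 replicate 3 was the lowest treated library, at 9.54 and 9.07. None of the 4 was called without 1.5 h replicate 1 (0.0782, 0.0732, 0.106 and 0.0714).

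Melanocyte, nerve and hair genes were lower in part. Dct and Pmel, which act in pigment formation, fell by 1.22 and 0.79 (log2, adjusted p = 0.0135 and 0.010), and they were 2 of 12 melanocyte markers. Dct went from 6.03, 6.85 and 6.90 to 5.19, 5.16 and 5.76, and Pmel from 5.96, 6.05 and 5.87 to 5.08, 4.93 and 5.49. Balb/c mice are albino, and their melanocytes lack pigment. Tyr and Tyrp1 differed by -0.64 and -0.89 (0.0544 and 0.0682). Dct and Pmel lost their call without untreated replicate 2 (0.0718 and 0.0523). The Schwann cell cadherin Cdh19 fell by 1.25 (0.0242, and 0.100 without untreated replicate 2), 1 of 8 nerve markers. The hair shaft regulator Hoxc13 fell by 0.78 (0.0258, and 0.0842 without untreated replicate 2). Hair keratins such as Krt25, at 6.51, 10.74 and 7.03 against 4.57, 5.96 and 4.92, were not called (0.0918), and untreated replicate 2 held their highest values.

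Genes of fibroblasts and signalling between dermis and epidermis fell in small numbers. Grem1, an inhibitor of BMP signalling, was at 8.43, 8.45 and 8.54 in untreated skin and at 7.12, 7.01 and 7.67 at 1.5 h, a fall of 1.21 (log2, adjusted p = 0.00153). Fgf7, the keratinocyte growth factor made by fibroblasts, fell by 0.79, from 8.07, 7.89 and 8.25 to 7.23, 7.43 and 7.2 (0.00535). Both were steady, and their groups were well apart. The Wnt antagonist Dkk2 fell by 1.03 (0.0241), the activin subunit Inhba by 0.56 (0.0215) and the fibroblast regulator Twist2 by 0.71 (0.0357), but each lost its call with a library left out (up to 0.0990 without untreated replicate 2, 0.0960 without untreated replicate 3 and 0.131 without untreated replicate 2). With Grem1, these made up 2 of 21 BMP and TGF beta genes, 1 of 22 Notch and Wnt genes and 1 of 12 fibroblast markers. None of 19 collagen and matrix genes was called, and 4 passed an unadjusted p of 0.05.

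The genes of this paragraph were picked because they were called lower and belong to no list. The tendon regulator Mkx fell by 1.19, from 6.52, 6.47 and 6.59 to 5.26, 5.13 and 5.61 (adjusted p = 0.00116), the tendon membrane protein Tnmd by 1.01 (0.00535) and the collagen-binding Fmod by 0.98 (0.0271). The guidance receptor Robo2 fell by 1.21, from 6.99, 6.88 and 7.01 to 5.67, 5.43 and 6.14 (0.00420), and its ligand Slit2 by 1.13 (0.0284). Mkx, Tnmd and Robo2 were steady, and Fmod and Slit2 reached 0.106 and 0.111 without untreated replicate 2. The Wnt modulators Rspo3 and Wif1 fell by 0.66 and 0.72 (0.0293 and 0.0351), and the hedgehog receptor Ptch1 by 0.76 (0.0316). The calls of these 3 ended without untreated replicate 2 (0.119, 0.141 and 0.132), and that of Wif1 with the replicate block (0.0515).

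Clock genes time the daily rhythm of cells. Of 16 clock genes, 3 fell and 1 rose. The output factors Dbp and Tef, which activate the same DNA element, fell by 0.55 and 0.45 (log2, adjusted p = 0.0189 and 0.0416), and Per3 by 0.62 (0.0271). Nfil3, which represses that element, rose 1.86-fold, from 7.26, 7.33 and 7.48 to 8.13, 8.47 and 8.17 (0.00595), and was steady. Dbp went from 8.71, 8.54 and 8.59 to 8.17, 8.10 and 7.92. The 3 falls were not called when arrays were centred on the median of all probe sets (0.0542, 0.108 and 0.0581), and 1 clock gene was called lower without 1.5 h replicate 1. Left-out libraries took Dbp to 0.0707, Tef to 0.143 and Per3 to 0.0997, and Tef was not called with the replicate block (0.0612). The core gene Nr1d1 was at 10.68, 10.49 and 10.30 against 10.60, 9.91 and 9.54 (0.397). The labels name no clock time of collection, so time of day and treatment cannot be told apart. The chaperone Hsph1 fell by 0.76 (0.0118, and 0.0625 without untreated replicate 3), 1 of 14 heat shock genes.

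Some genes for splicing proteins and nuclear RNAs were picked because they were called lower, so they say nothing of such genes as a group. Clk1, a kinase of splicing factors, was at 9.93, 10.12 and 10.06 in untreated skin and at 9.16, 9.05 and 9.10 at 1.5 h, a fall of 0.93 (log2, adjusted p = 0.00779). Prpf39, a spliceosome protein, fell by 0.97, from 7.01, 7.31 and 7.37 to 6.29, 6.29 and 6.21 (0.00872). Both were steady. Clk4, Pnisr, Rsrp1, Srek1, Luc7l2, Rbm39, Rbm5, Sfpq and Prpf4b fell by 0.77, 0.81, 0.84, 0.77, 0.57, 0.53, 0.58, 0.59 and 0.56, with adjusted p from 0.0215 to 0.0424. All 9 lost their call in 4 or more of the 6 cases with a library left out, and 6 of the 9 when arrays were centred on the median of all probe sets. Ogt, which adds sugar to nuclear proteins, fell by 1.1 (0.0192, and 0.0847 without untreated replicate 2). The nuclear RNA Malat1 went from 11.31, 11.58 and 11.54 to 10.50, 10.35 and 10.40, a fall of 1.06 at the edge of the threshold (0.0496) that was not called under any of 6 other scalings.

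MicroRNAs are short RNAs that pair through a seed with messenger RNAs and repress them. Of 297 microRNA genes tested, 12 fell (4.04%) and 0 rose, against 1.59% of all genes and 1.53% of 18553 protein-coding genes lower. No test of this share was made. Under 6 other scalings 10 to 12 were lower and 0 or 1 higher, while the median change of the 297 lay between -0.07 and 0.05. The array measures RNA from the precursor locus after amplification of total RNA, so a value does not tell the primary transcript from the mature microRNA. Of the 12, 10 had mature sequences in the RefSeq table (GRCm38.p6). Their 20 mature arms had 20 different seeds, so no seed was shared. The 8 arms below belong to genes with the largest falls or to well-known families, with the seed (bases 2 to 8) in capitals. The mature forms of let-7f-5p, miR-218-5p, miR-128-3p and miR-30c-5p are made from another locus as well.
miR-15a-5p, chr14:61632075-61632096, minus strand: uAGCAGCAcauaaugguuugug
miR-99a-5p, chr16:77598940-77598961, plus strand: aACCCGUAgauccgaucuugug
miR-350-3p, chr1:176772342-176772363, minus strand: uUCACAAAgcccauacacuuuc
miR-186-5p, chr3:157544285-157544306, plus strand: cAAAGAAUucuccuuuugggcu
miR-218-5p, chr5:48223966-48223986, plus strand: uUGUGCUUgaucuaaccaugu
let-7f-5p, chr13:48537889-48537910, minus strand: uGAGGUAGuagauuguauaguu
miR-128-3p, chr1:128202404-128202424, plus strand: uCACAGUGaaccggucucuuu
miR-30c-5p, chr1:23291714-23291736, plus strand: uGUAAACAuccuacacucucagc

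Mir15a, of a family that restrains the cell cycle, was at 6.94, 7.71 and 8.09 in untreated skin and at 5.01, 5.84 and 5.78 at 1.5 h, a fall of 2.04 (log2, adjusted p = 0.00421). Mir350 fell by 1.54, from 5.18, 5.30 and 5.34 to 3.78, 3.48 and 3.95 (0.00535). Both were steady, but Mir350 was not called when values were raised to a floor (0.0817). Mir99a fell by 1.82, from 6.67, 7.72 and 7.74 to 6.16, 5.14 and 5.38 (0.0362, and 0.141 without untreated replicate 2). Mir186 fell by 1.31, Mir218-1 by 1.24, Mirlet7f-1 by 1.09, Mir128-1 by 1.02 and Mir297b by 0.93 (0.0357, 0.0350, 0.0247, 0.0199 and 0.0224). Mir677, Mir143, Mir30c-2 and Mir701 fell by 0.81, 0.71, 0.68 and 0.58 (0.0105, 0.0258, 0.0392 and 0.0484). Each of the 10 beside Mir15a and Mir350 lost its call with at least 1 library left out (up to 0.141), and Mir30c-2 and Mir701 with all 6. In all 12 genes the 3 treated values lay below the 3 untreated ones. These genes were picked by their calls, and the groups were apart in 25.1% of all genes.

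**Figure D4:**
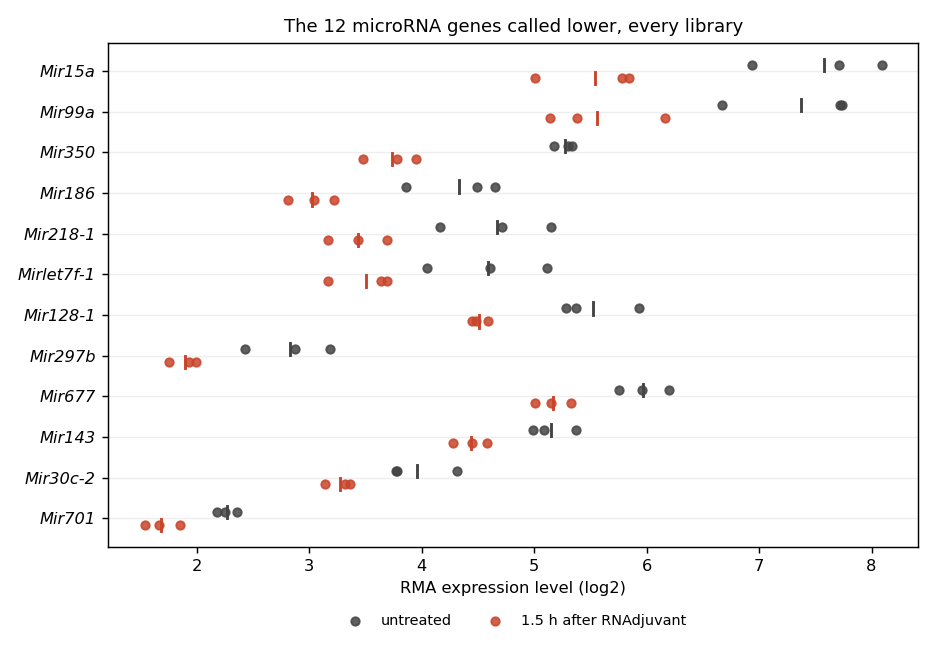
Log2 RMA level of the 12 microRNA genes called lower in each untreated library (grey) and each 1.5 h library (red), with the group mean as a bar. The groups do not overlap in any of the 12 genes, which were picked by their calls, against 25.1% of all genes with groups apart. Levels are those of the array probe sets of each precursor gene.

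At 3 of the 12 loci a host or neighbouring gene was named because it was also called lower. Mir15a lies within Dleu2, which fell by 0.62 (log2, adjusted p = 0.0420), next to Kcnrg, which went from 6.80, 6.82 and 7.29 to 5.52, 5.8 and 5.50 and so fell by 1.36 (0.0133). Mir99ahg, the host transcript of Mir99a, fell by 1.42 (0.0307), and Slit2, which holds Mir218-1, by 1.13 (0.0284). Dleu2 lost its call with the replicate block (0.0636) and Mir99ahg reached 0.129 without untreated replicate 3. Kcnrg reached 0.070 without untreated replicate 3 and Slit2 0.111 without untreated replicate 2. Of 56 small nucleolar RNA genes, which guide the modification of ribosomal RNA, 4 were lower (7.14%) and none higher, with a median change of -0.33. Of these, Snord38a fell by 1.02 and was steady (0.00907), and Snord47 by 1.09 (0.0178, and 0.0821 without untreated replicate 3). Their median lay between -0.22 and -0.36 under 6 other scalings, while 0 to 2 were called higher.

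The later arrays show where 1.5 h lay in the course of these genes. Comparisons with later times use the same 1.5 h arrays that chose the genes, so they are a description. Between 1.5 h and 6 h 13.3% of all genes were called, and between 1.5 h and 24 h 2.91%. Of the 20 largest rises, leaving out the predicted gene Gm6377, 9 were still higher at 6 h than at 1.5 h and 4 were lower. Ifnb1 was lower by 1.86 (log2) at 6 h and by 3.37 at 24 h (adjusted p = 5.91e-06 and 6.18e-08), and Ifna4 by 1.19 and 1.99 (0.0247 and 0.00191). Both had their highest mean at 1.5 h among the times sampled. Cxcl10, Ifit1, Rsad2 and Mx2 were higher at 6 h than at 1.5 h by 2.64, 2.49, 4.05 and 3.71, and Cmpk2 by 4.03.

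Fosb, Fosl1 and Tiparp had their highest mean at 1.5 h as well. Fosb and Fosl1 were lower at 6 h than at 1.5 h by 1.53 and 0.86 (log2, adjusted p = 0.00112 and 0.00238), and Tiparp by 0.48 (0.00880). Atf3 was higher at 6 h by 0.98 (0.0137). Saa3 was higher than at 1.5 h by 3.73 at 6 h and by 5.29 at 24 h. RNA receptors not called at 1.5 h were higher at 6 h than at 1.5 h, Ddx58 by 2.69, Ifih1 by 2.84 and Tlr3 by 2.29. Of the 15 largest falls, leaving out the predicted gene 2310067E19Rik, microRNA genes and Mir99ahg, 10 were higher again at 6 h than at 1.5 h and none was lower, and 9 of the 12 microRNA genes were higher at 6 h. Cyp2g1 was higher by 1.05 at 6 h and by 0.69 at 24 h than at 1.5 h, and Mir15a by 1.80 and 1.48. Mmp13, a collagenase, went from 6.29, 6.22 and 5.25 to 4.56, 4.67 and 4.42 at 1.5 h (0.0213, and 0.0925 without untreated replicate 2) and was 3.72 above that at 6 h.

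**Figure D5:**
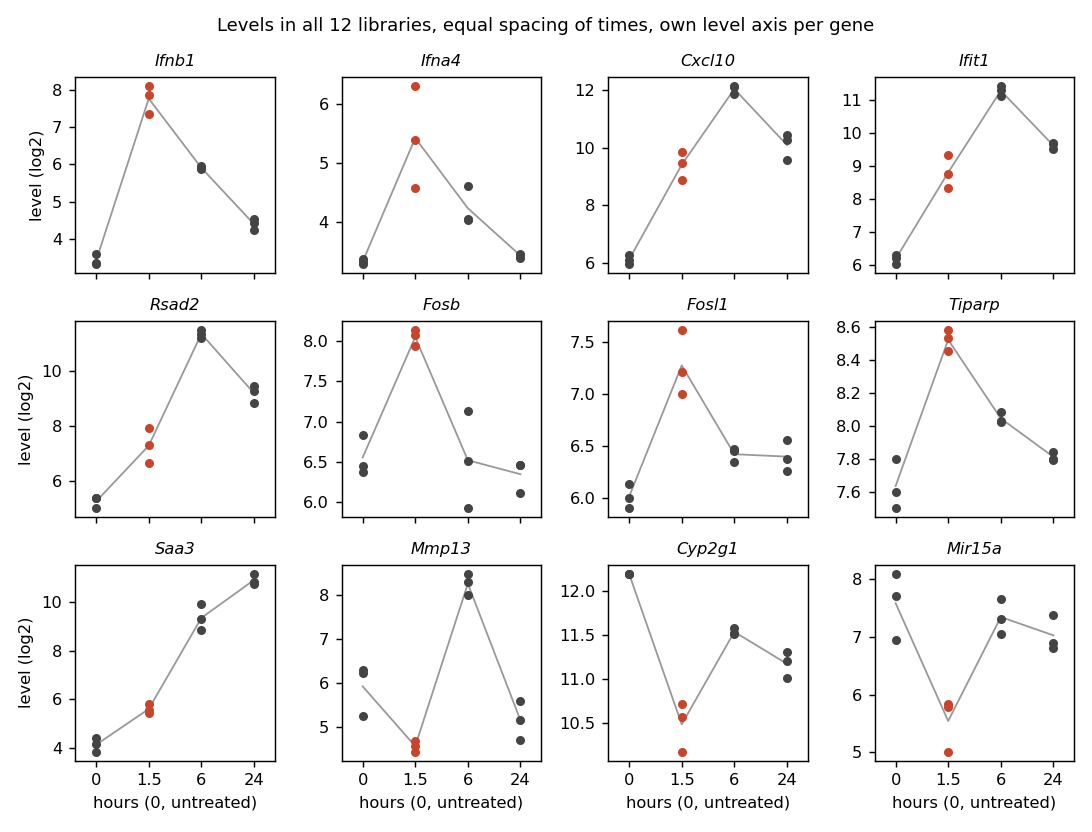
Log2 RMA level of 12 genes in all 12 libraries (points, with a line through the group means) in untreated skin, drawn at 0, and at 1.5 h (red), 6 h and 24 h, with times spaced equally and each gene on its own level axis. Ifnb1, Ifna4, Fosb, Fosl1 and Tiparp had their highest mean at 1.5 h, Cxcl10, Ifit1, Rsad2 and Mmp13 at 6 h and Saa3 at 24 h, while Cyp2g1 and Mir15a had their lowest mean at 1.5 h.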

How the data were processed

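Skin was kept in RNAlater, RNA was prepared with RNeasy and DNase, and cDNA amplified from 50 ng of RNA was hybridised to Affymetrix Mouse Gene 1.0 arrays, per the labels' protocols. The deposited values are log2, and the submitters' processing notes name Affymetrix Expression Console 1.1 and RMA. RMA corrects background, quantile-normalizes and summarises probes, and it compresses the fold changes of dim genes. Of 35556 probe sets, 21789 had 1 gene symbol in the platform annotation, 1621 had several and were left unnamed, and 12146 were not listed. For 999 genes with several probe sets, the one with the highest mean was kept. Groups were compared with limma 3.58.1 (R 4.3.3) over all 12 arrays in 4 groups, with 8 residual and 5.24 prior degrees of freedom and Benjamini-Hochberg adjustment over 19938 genes. Single-gene permutation tests were not used, since 3 against 3 samples cannot go below p = 0.1. The number of arrays limits the precision, and no scan batch is given in the sources used here. Nothing beyond the labels' words says that replicates came from separate animals, so p-values measure the spread between these samples.

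The 52 gene lists and their members (894 entries, 821 measured) were chosen with earlier results of these data known. Named genes were the 20 largest called rises and 15 largest called falls (leaving out predicted genes, microRNA genes and Mir99ahg), called members of the lists (at most 6 each), the interferon genes, up to 3 uncalled members with the largest change per list and the microRNA genes called. Other genes, called or not, were named after their values were seen. Same-numbered untreated and 1.5 h replicates did not pair, with correlations of their deviations of -0.01, 0.06 and -0.19. The 6 h and 24 h replicates were not compared in this way. B and plasma cell markers averaged 6.07 in 1.5 h replicate 1 and 5.67 in 6 h replicate 1. In replicate 1 of the untreated and 24 h groups they averaged 4.21 and 4.43. The fit was also run on simulated data with independent noise. These data held no differences shared by the genes of a library, such as those of tissue markers, so that run does not cover them. Alternatives were scalings, probe set choices, filters, thresholds, a replicate block and left-out libraries, and 3 scalings over all probe sets were added after the data were seen. Promoters and microRNA sequences came from RefSeq (GRCm38.p6).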

Additional observations from a re-analysis of the deposited data

Results flagged for a closer look

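In 4 of the genes called at 1.5 h, the difference from untreated skin had the opposite sign at 6 h and was called there too, and the difference between the 2 times was itself called by limma. The collagenase gene Mmp13 was 1.37 (log2) below untreated skin at 1.5 h and 2.35 above it at 6 h (adjusted p = 7.18e-07 for the difference between the times). Mir143, a microRNA gene of smooth muscle, changed by -0.71 at 1.5 h and by 0.64 at 6 h (3.96e-05). Fmnl2, which encodes a formin that builds actin filaments, changed by -0.64 and by 0.62 (1.33e-05). Rufy3, a gene for a protein of endosome transport, changed by -0.45 and by 0.51 (5.78e-05). Both comparisons use the same untreated arrays. At 24 h 0 genes called at 1.5 h were called with the opposite sign.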

How the results depend on the processing

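With limma 439 genes were called. Fits with 1 of the 6 libraries left out called 97 to 306 genes (33 to 133 higher and 62 to 209 lower). Of the genes called in these fits, 92 to 241 were among the 439. The totals were 97 without untreated replicate 2, 106 without untreated replicate 3 and 126 without 1.5 h replicate 2. Leaving out both libraries high in Glycam1, 1.5 h replicate 1 and 6 h replicate 1, gave 198 calls (71 higher and 127 lower). Of the 198, 167 were among the 439. Array weights gave 696 (207 and 489), the test without moderation of the variance 41 (16 and 25), an adjusted p under 0.01 gave 65 (26 and 39), and a 2-fold minimum 112 (46 and 66). Centring on the median of all probe sets gave 383, with 218 higher and 165 lower, and quantile normalization over all probe sets 431, with 186 and 245. The replicate block gave 442 (135 and 307), of which 372 were among the 439, and same-numbered untreated and 1.5 h samples did not pair. The remaining settings stayed within 1.5 times each count, with 519 of 10569 genes called once dim probe sets were removed. No named gene that was called reversed its sign. Of 157 named genes that were called, 10 lost their call with the block, 36 when only the 6 samples compared were fitted (387 called, of which 284 were among the 439), 20 under median centring over all probe sets and 46 to 98 with a library left out. Why counts moved was not tested. Dim genes are limited by their signal over background, and folds from untreated levels near 3 are compressed by RMA.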
